A study of Mus musculus with 4 samples.

Results

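The leukaemia inhibitory factor receptor gene Lifr and the receptor genes that signal with it were examined in draining lymph nodes of mice given extracellular vesicles (EVs) from induced pluripotent stem cells (iPSCs). The members are 5 of the 32285 genes in the deposited matrices, namely Lifr, Il6st, Il6ra, Osmr and Lif. They were chosen by the UMI counts of Lifr in B cells of EV-treated and control libraries, together with the genes of its receptor complex and its ligand. The levels of the members in EV-treated against control B cells are therefore given as a description, with no test. All 5 were counted in at least 1 cell. Lifr, Il6st and Il6ra passed the filter on low counts in B cells and T cells, whereas Osmr and Lif did not.

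Gp130, the protein made from Il6st, is the signalling chain shared by the interleukin-6 family of cytokines. LIF binds the LIF receptor, which pairs with gp130, and interleukin-6 binds its own receptor (Il6ra), which then recruits gp130. Oncostatin M uses gp130 with the oncostatin M receptor (Osmr). The complexes activate JAK kinases and chiefly STAT3, and SOCS3 shuts off the signal at gp130. In lymph nodes the family is best known for interleukin-6, which acts on CD4 T cells during the formation of follicular helper T cells and on plasma cell development.

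The study used wildtype C57BL/6 mice. The EV group received 100 µg of iPSC EVs by subcutaneous injection and the control group carried no EVs, described as untreated in the sample labels and as given PBS in the methods. The labels give 24 h for the libraries of both groups, whereas the series design gives 5 days between injection and collection of the node. No gene was deleted and no cells were enriched before loading. Each group has 2 libraries, named biological replicates, so a permutation of single values over the libraries cannot give a p below 0.33, and whether one library pools several nodes is not given in the sources used here.

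After the filter on cells, 8141 and 7891 control cells and 8164 and 8529 EV cells were kept, with a median of 5502 to 6639 UMIs (unique molecular identifiers, counts of captured transcript molecules) per cell. The 4 libraries share 115 cell barcodes in all. B cells were taken as cells with at least 1 UMI of Cd79a and none of Cd3d, Cd3e and Cd3g, which gave 2878 and 2406 cells in controls and 4672 and 4163 in EV libraries. T cells (Cd3e without Cd79a) numbered 4122, 4352, 2418 and 3288 in the order control 1, control 2, EV 1, EV 2, and macrophages (at least 2 UMIs of C1qa and C1qb without Cd3e) numbered 42, 80, 91 and 67. The B cell gate carried its markers, with a summed B cell list of 12583 to 14190 CPM (UMIs of a gene scaled to a common total of all UMIs in a gate and library) against 25.2 to 36.2 CPM in T cells. The list includes Cd79a, which the gates require in B cells and exclude in T cells. Part of this contrast was thus fixed by the gating. The macrophage gate was mixed, since the same B cell list reached 2961 to 6264 CPM there and 5 to 20 of its cells per library were also in the B cell gate. Levels below are CPM of this kind unless stated otherwise, and shares are percentages of cells with at least 1 UMI. Exact binomial intervals and limits from zero counts cover counting error only.

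Lifr lies on chr15:7090614-7197489 (GRCm38, plus strand) with 8 annotated transcripts, and Il6st on chr13:112464070-112510086 (plus strand) with 10. Il6ra lies on chr3:89864059-89913196 (minus strand), Osmr on chr15:6813577-6874969 (minus strand) and Lif on chr11:4257557-4272514 (plus strand). RefSeq windows from 250 bases before to 50 bases after an annotated start were matched for 5 of 5 members. The windows at the 2 RefSeq starts of Lifr and at the start of Il6st are shown because these genes form 1 receptor complex yet took different levels in the same B cells. Capitals mark GGGCGG, the core of the GC box, on either strand.
Lifr, chr15:7129322-7129621, plus strand, GRCm38.p6: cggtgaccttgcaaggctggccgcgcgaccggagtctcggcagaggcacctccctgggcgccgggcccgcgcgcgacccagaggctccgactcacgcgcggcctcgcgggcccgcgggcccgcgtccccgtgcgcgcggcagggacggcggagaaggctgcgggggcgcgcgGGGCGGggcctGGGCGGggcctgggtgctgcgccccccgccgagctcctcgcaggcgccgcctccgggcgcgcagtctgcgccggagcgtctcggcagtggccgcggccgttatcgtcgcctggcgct
Lifr, chr15:7140292-7140591, plus strand, GRCm38.p6: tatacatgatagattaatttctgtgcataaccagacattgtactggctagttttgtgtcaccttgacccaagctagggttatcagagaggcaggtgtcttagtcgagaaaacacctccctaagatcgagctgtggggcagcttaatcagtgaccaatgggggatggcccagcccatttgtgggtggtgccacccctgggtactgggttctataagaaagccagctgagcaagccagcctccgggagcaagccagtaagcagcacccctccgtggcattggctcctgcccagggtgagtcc
Il6st, chr13:112463820-112464119, plus strand, GRCm38.p6: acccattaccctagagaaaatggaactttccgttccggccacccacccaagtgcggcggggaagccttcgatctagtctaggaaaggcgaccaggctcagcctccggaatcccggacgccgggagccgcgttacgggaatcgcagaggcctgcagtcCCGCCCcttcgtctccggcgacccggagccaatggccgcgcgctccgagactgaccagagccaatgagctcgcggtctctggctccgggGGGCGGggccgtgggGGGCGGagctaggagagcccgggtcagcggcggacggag

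The upstream Lifr window was 81.3% G and C with 53 CpG dinucleotides and 2 GC-box cores, and the downstream one was 53.3% G and C with 4 CpG and no core. The Il6st window held 68.3% G and C, 33 CpG and 3 cores. Over 32851 windows of the same length from 27025 genes, the median was 52.7% G and C and 35.7% held GGGCGG. The STAT-type motif TTCNNNGAA was in 8.30% of all windows and the interferon-response-type motif, GAAA repeated after 2 bases of any kind, in 3.44%, each searched on both strands, and neither was found in a window of any member. UMIs were counted at the 3′ ends of transcripts, so the counts do not show which start was used.

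Lifr was the member with a treatment difference in B cells. The B cells of control 1 and control 2 held 92 and 98 Lifr UMIs, and those of EV 1 and EV 2 held 1430 and 1499. As levels these were 7.15, 7.68, 48.0 and 58.6 CPM. Both EV libraries were above both controls, with group means of 7.41 ± 0.38 CPM in controls and 53.3 ± 7.43 CPM in EV libraries (SD, n = 2 each). The fitted log2 change was 2.89 (SE 0.13), a 7.40-fold difference, which was the 22nd largest of 13127 genes tested. Since this contrast chose the gene, no p is given. Over all alternatives the log2 change ran from 2.71 to 3.41.

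The difference was also seen as the share of B cells with a Lifr UMI. A Lifr UMI was found in 59 and 66 B cells of the controls and in 825 and 864 of the EV libraries, or 2.05%, 2.74%, 17.7% and 20.8%. The mean shares were 2.40% ± 0.49 in controls and 19.2% ± 2.19 in EV libraries (SD, n = 2), a difference of 16.8 percentage points. Positive cells held on average 1.56 and 1.48 UMIs in controls and 1.73 in each EV library, and the highest single cell held 10, 14, 9 and 8. When each cell was thinned to 1000 UMIs the shares were 0.592%, 0.334%, 4.68% and 5.12%. The order of the groups was thus kept at equal depth, at lower shares.

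**Figure D1:**
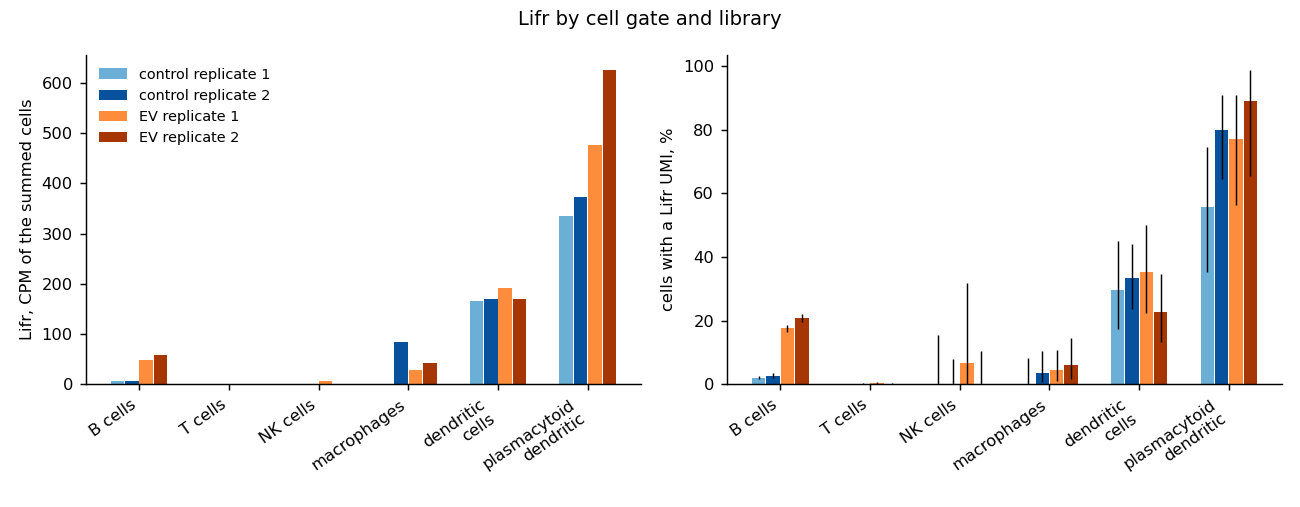
Lifr level (left, CPM of all UMIs in the gate) and share of cells with a Lifr UMI (right, percent, with exact 95% binomial intervals) in 6 cell gates, with 1 bar per library. In the B cell gate the EV libraries reach 48.0 and 58.6 CPM against 7.15 and 7.68 CPM in controls, T cells lie near 0, and both dendritic cell gates are high in all 4 libraries.

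T cells, which serve as the gate for background UMIs, held 12, 16, 36 and 5 Lifr UMIs, or 0.418, 0.456, 1.60 and 0.177 CPM. The shares were 0.121%, 0.138%, 0.372% and 0.152%, and a single cell of EV 1 carried 28 of its 36 UMIs. The groups overlapped, and Lifr in T cells had a log2 change of 0.98 (SE 0.80, edgeR adjusted p = 0.524), where 0.536% of 13987 genes passed the adjusted threshold of 0.05. The EV change in B cells exceeded that in T cells by 1.99 on the log2 scale (SE 0.92), and by 4.30 (SE 0.52) without EV 1. No p is given because the B cell side chose the gene. Across the 4 libraries, Lifr was higher in B cells than in T cells by a log2 difference of 5.41 (SE 0.37, higher in 4 of 4 libraries). The p of this difference is left out for the same reason, and 70% of all genes passed in the comparison.

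Dendritic cells (DCs) carried Lifr in every library. In the plasmacytoid DC gate of 27, 40, 26 and 18 cells, Lifr stood at 334, 373, 475 and 624 CPM and in 55.6%, 80.0%, 76.9% and 88.9% of cells. The DC gate set by Flt3 and Zbtb46, of 47, 90, 51 and 66 cells, had 166, 170, 192 and 169 CPM. Its shares were 29.8%, 33.3%, 35.3% and 22.7%. Plasmacytoid DCs were not excluded from it, and 15, 28, 17 and 13 of its cells were also in the plasmacytoid gate. The part of these shared cells in its Lifr level was not tested. The Flt3 and Zbtb46 gate showed little spread between groups. The plasmacytoid gate was higher in both EV libraries than in both controls, with 18 to 40 cells behind each value. Macrophages held 0, 15, 8 and 9 Lifr UMIs, with overlapping groups. NK cells held 1 Lifr UMI in all, and plasma cells, of which there were 1 to 8 per library, held none.

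The B cell gate contributed 46.5% and 31.7% of all Lifr UMIs of control 1 and control 2, and 81.3% and 81.2% of those of EV 1 and EV 2. The DC gates contributed 41.9% and 54.7% in controls and 7.90% and 8.29% in EV libraries. Cells in none of the named gates also held more Lifr in EV libraries. Their mean was 2.86 ± 1.79 CPM in controls and 21.6 ± 2.41 CPM in EV libraries (SD, n = 2 each). Which cells these were was not tested. Among Lifr-positive B cells, 18.6% and 12.1% in controls also held a UMI of Siglech, Flt3 or Zbtb46, genes that mark DCs, against 5.21% and 4.40% in EV libraries. Other B cells held such a UMI in 7.02%, 7.01%, 5.48% and 5.27%. The summed list of DC markers in the whole B cell gate was 110 and 99.1 CPM in controls and 109 and 101 CPM in EV libraries. The same list reached 190 CPM in the T cells of control 1, so the sum does not measure DC content alone. B cells with a UMI of Siglech, Flt3 or Zbtb46 held 28 of 92 and 22 of 98 Lifr UMIs in controls. In EV libraries they held 71 of 1430 and 71 of 1499. With cells holding any of these 3 genes left out, an alternative chosen after seeing the data, Lifr in B cells stood at 5.43, 6.50, 48.7 and 59.6 CPM, a log2 change of 3.22 (SE 0.15). Results on which B cells carry Lifr are given with and without those cells.

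Il6st, the gp130 chain, was higher in T cells than in B cells. T cells held 172, 166, 179 and 142 CPM of Il6st with a UMI in 59.0%, 62.5%, 69.9% and 60.4% of cells. B cells held 8.93, 14.6, 17.2 and 12.7 CPM with a UMI in 3.51%, 5.99%, 8.67% and 6.56%. B cells were below T cells in 4 of 4 libraries, by a log2 difference of -3.67 (SE 0.12, adjusted p = 1.84e-08). As a measure of carried-over T cell RNA, the summed T cell list in the B cell gate was 29.3 to 38.5 CPM. The gate itself sets 3 of the 8 genes of this list (Cd3d, Cd3e and Cd3g) to 0, so the sum understates such RNA. In control 1 the sum was 32.7 CPM in B cells and 4768 CPM in T cells. The part of such RNA in the Il6st counts of B cells was not tested.

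The EV and control ranges of Il6st overlapped in both lymphocyte types. In B cells the log2 change was 0.40 (SE 0.23), with control 2 lying between EV 2 and EV 1, and it was 0.087 without control 1, 0.80 without control 2, 0.15 without EV 1 and 0.60 without EV 2. In T cells it was -0.05 (SE 0.11, adjusted p = 0.851). The sign rested on single libraries, since the T cell value was -0.23 (adjusted p = 0.0210) without EV 1 and 0.12 (adjusted p = 0.308) without EV 2. Among T cell gates, CD4 cells held 177, 169, 190 and 151 CPM, CD8 cells 173, 169, 175 and 142 CPM, and regulatory T cells 167, 157, 224 and 146 CPM. The ranges of these gates overlapped one another. DCs held 118, 79.4, 158 and 142 CPM and plasmacytoid DCs 55.0, 38.4, 79.2 and 29.3 CPM. Macrophages held 1 to 4 Il6st UMIs and NK cells 0 to 7.

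Il6ra, the interleukin-6 binding chain, was also higher in T cells. T cells held 155, 158, 149 and 159 CPM and B cells 24.4, 25.2, 21.0 and 24.5 CPM. The B cell level was lower in 4 of 4 libraries, by -2.79 on the log2 scale (SE 0.04, adjusted p = 2.94e-10). Regulatory T cells held 250, 252, 200 and 263 CPM, CD4 cells 212, 217, 195 and 217 CPM and CD8 cells 119, 117, 120 and 116 CPM. CD8 cells lay below the other T cell gates in every library, while the ranges of CD4 and regulatory T cells overlapped. DCs held 74.2, 62.8, 83.1 and 153 CPM and plasmacytoid DCs 80.3, 72.3, 44.8 and 71.2 CPM.

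EV and control libraries overlapped for Il6ra in both T cells and B cells. The log2 change was -0.09 (SE 0.11) in B cells and 0.0063 (SE 0.07, adjusted p = 0.971) in T cells. A UMI of Il6ra was found in 8.51% to 11.3% of B cells. Ordered by median level over the 4 libraries, Lifr was highest in plasmacytoid DCs, then DCs, then macrophages, B cells and T cells. The ranges of macrophages and B cells overlapped, and in both EV libraries B cells (48.0 and 58.6 CPM) lay above macrophages (29.7 and 42.6 CPM). By the same order Il6st was highest in CD4 T cells and Il6ra in regulatory T cells, and each was lower in B cells than in any T cell gate.

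**Figure D2:**
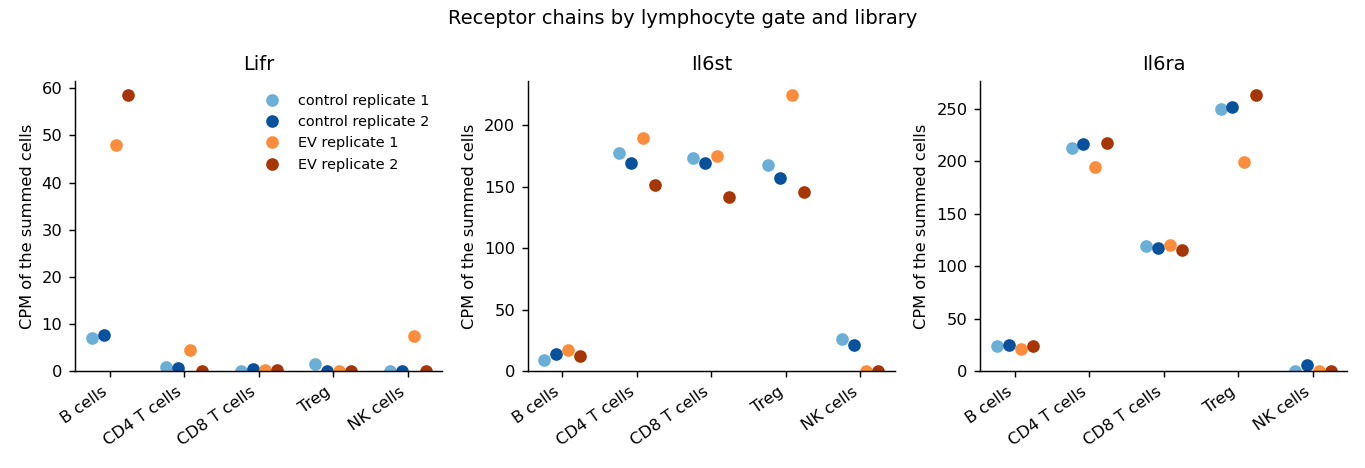
Level (CPM) of Lifr, Il6st and Il6ra in B cells, CD4, CD8 and regulatory T cells and NK cells, with 1 point per library coloured by group. Lifr reaches 48.0 and 58.6 CPM in B cells of the EV libraries and stays near 0 in the T cell gates, while Il6st and Il6ra lie above 100 CPM in the T cell gates and below 30 CPM in B cells of all 4 libraries.

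Osmr and Lif were near the limit of detection. Osmr, the oncostatin M receptor, had 1, 1, 2 and 2 UMIs over all filtered cells of a library, of which B cells held 0, 1, 0 and 1. Lif, the ligand itself, had 1, 4, 12 and 6 UMIs over all cells, of which T cells held 1, 1, 9 and 2 and B cells 0, 1, 0 and 1. Both genes were removed by the filter on low counts in every fit, so neither a change nor its absence was detectable at this depth.

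In macrophages, neither Lifr nor Il6st nor Il6ra passed the filter on low counts. The edgeR fit called 0% of 3497 genes there, with 316 at an unadjusted p under 0.05 and 1 gene called by DESeq2. Without the filter the log2 changes were -0.63 for Lifr (adjusted p = 0.929), 0.39 for Il6st (adjusted p = 0.958) and 0.79 for Il6ra (adjusted p = 0.929).

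The B cells were split by Fcer2a, the gene of CD23, a low-affinity IgE receptor of follicular B cells. Cells with no Fcer2a UMI numbered 497 and 407 in controls and 1092 and 752 in EV libraries. Lifr in these cells stood at 13.6, 11.5, 34.6 and 44.1 CPM, and in cells with Fcer2a it stood at 5.92, 6.94, 51.8 and 61.4 CPM. Both controls were thus higher without Fcer2a and both EV libraries were higher with it. Over the 4 libraries the log2 difference of Lifr between the subsets was 0.34 (SE 0.15), in a comparison where 16% of genes passed. No p is given for Lifr in the splits of B cells, since its counts in B cells chose the gene. The difference was 0.46 without control 1, 0.43 without control 2, 0.099 without EV 1 and 0.17 without EV 2. With DESeq2 it had the opposite sign (-0.16).

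The control pattern changed when cells with DC genes were left out. Lifr then stood at 5.76, 3.84, 33.5 and 46.3 CPM without Fcer2a and at 5.36, 6.99, 52.9 and 62.1 CPM with it. The log2 difference was 0.53 (SE 0.10), higher with Fcer2a in 3 of 4 libraries, in a comparison where 12.2% of genes passed. The EV libraries were nearly the same in both versions and the controls were the ones that moved.

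The EV difference in Lifr was present on either side of the split. It was 3.18 (SE 0.14) in cells with Fcer2a and 1.65 (SE 0.21) in cells without, on the log2 scale. The difference between these effects was 1.52 (SE 0.25). No p is given for Lifr, whose EV values in B cells chose it, and 0.153% of all genes passed the test of such a difference. The Lifr value was 1.27 without control 1, 0.50 (SE 0.35) with a stricter B cell gate, and 0.22 (SE 0.38) without cells holding DC genes. Fcer2a itself was lower in the EV libraries. In B cells without a Lifr UMI it stood at 575 and 512 CPM in controls and 363 and 455 CPM in EV libraries, on totals scaled for the fit. Whether the sides of the split hold like cells in both groups was not tested.

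In the EV libraries the share of cells with Lifr was lowest where Fcer2a was not counted. With 0, 1, 2 and 3 or more Fcer2a UMIs, EV 1 had 13.4%, 15.1%, 15.4% and 23.2% and EV 2 had 15.4%, 21.7%, 18.2% and 23.4%. Median depth rose along the same bins, from 5473 to 6230.5 UMIs in EV 1 and from 5245.5 to 5958 in EV 2. As levels, which are relative to depth, EV 1 had 34.6, 41.7, 42.0 and 61.6 CPM and EV 2 had 44.1, 64.1, 53.0 and 63.1 CPM. The controls had 13.6, 6.18, 6.19 and 5.70 CPM and 11.5, 4.33, 7.84 and 7.60 CPM. The bin with 1 UMI, just inside the Fcer2a split, was above the bin with 0 in both EV libraries and below it in both controls.

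**Figure D3:**
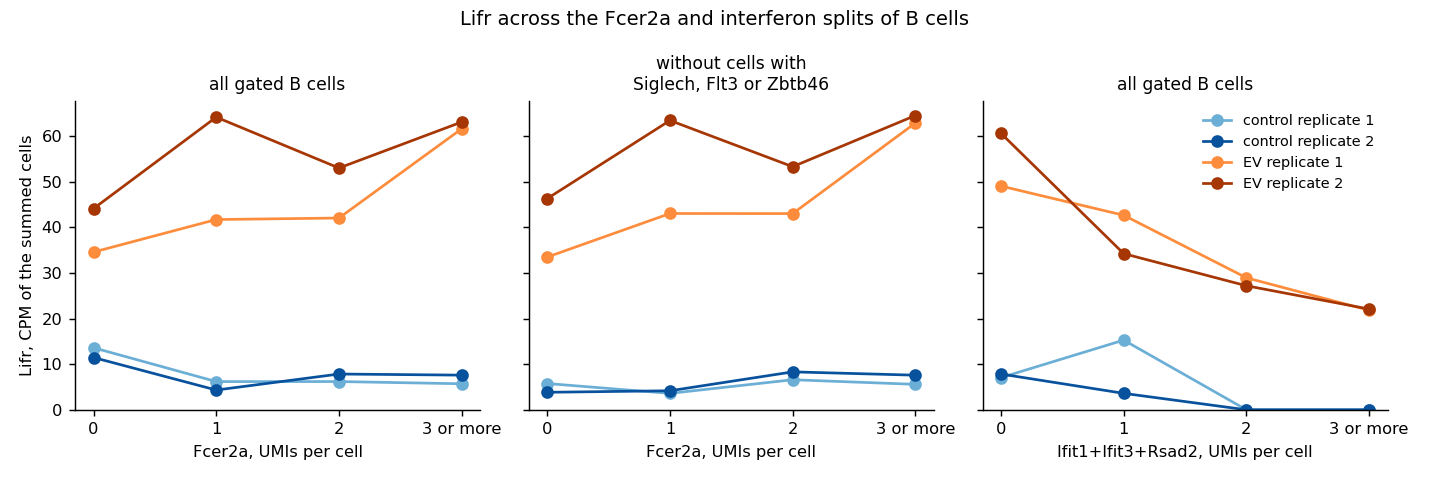
Lifr level (CPM) in B cells by the number of Fcer2a UMIs per cell, in all B cells (left) and without cells holding Siglech, Flt3 or Zbtb46 (middle), and by the number of Ifit1, Ifit3 and Rsad2 UMIs per cell (right), with 1 line per library. The EV libraries rise from 34.6 and 44.1 CPM at 0 Fcer2a UMIs to 61.6 and 63.1 CPM at 3 or more, and fall from 49.0 and 60.6 CPM at 0 interferon-gene UMIs to 21.8 and 22.1 CPM at 3 or more.

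For the other receptors, Il6st was lower in cells with Fcer2a (log2 difference -0.49, SE 0.14, adjusted p = 0.0258), at 13.6, 26.3, 17.7 and 17.2 CPM without and 8.05, 12.3, 17.1 and 11.8 CPM with Fcer2a. It was lower in 4 of 4 libraries, but only slightly in EV 1. Without cells holding DC genes, which themselves carry Il6st, the difference was -0.31 and did not pass (adjusted p = 0.113). Il6ra had a difference of -0.24 (adjusted p = 0.142).

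A second split used interferon-stimulated genes, with at least 2 UMIs over Ifit1, Ifit3 and Rsad2 defining interferon-high cells. These numbered 13 and 18 of the control B cells and 119 and 120 of the EV B cells. They held 0 and 0 Lifr UMIs in controls, where 0 of 13 and 0 of 18 cells allow shares of up to 23.1% and 16.7%, and 22 and 19 UMIs in EV libraries. The levels in EV libraries were 24.2 and 24.0 CPM in interferon-high cells against 48.8 and 59.7 CPM in the remaining B cells, with shares of 10.9% and 12.5% against 17.8% and 21.0%. Lifr was thus lower in the interferon-high cells of both EV libraries, and the controls had too few such cells to place.

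In the fit over the 4 libraries the log2 difference of Lifr in interferon-high B cells was -1.13 (SE 0.26), where 5.22% of genes passed. The controls held no Lifr UMI in these cells, so the value rests on the EV libraries. No p is given, since the counts of Lifr in B cells chose the gene. Without cells holding DC genes the value was -1.10. It was -1.33 without EV 1, -1.03 without EV 2 and -1.16 with DESeq2. Il6st (-0.26, adjusted p = 0.900) and Il6ra (0.20, adjusted p = 0.900) did not pass.

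In the EV libraries the level of Lifr was lower in each bin with more interferon-gene UMIs. With 0, 1, 2 and 3 or more UMIs, EV 1 had 49.0, 42.6, 28.9 and 21.8 CPM and EV 2 had 60.6, 34.2, 27.2 and 22.1 CPM. The values on either side of the threshold of 2 were thus 42.6 and 28.9 CPM in EV 1 and 34.2 and 27.2 CPM in EV 2. The bins at 2 UMIs held 41 and 44 cells with 9 and 8 Lifr UMIs. The shares of cells with a Lifr UMI did not fall at each step. In EV 1 the share was 17.7% at 0 and 20.5% at 1 UMI. In EV 2 it was 15.8% at 1 and 15.9% at 2 UMIs. Both EV libraries had their lowest share at 3 or more UMIs. Whether the EV effect on Lifr differed between interferon-high and interferon-low cells could not be measured, because the control side was at 0.

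B cells with and without a Lifr UMI were then compared within each library to describe which B cells carry the receptor. CPM of single genes in this comparison use the totals of the fit, adjusted by TMM scaling and with Lifr left out. They therefore differ somewhat from CPM of all UMIs, which are used for sums of marker lists. Positive cells were slightly deeper, with medians of 4530, 5266, 6155 and 5912.5 UMIs against 4118, 4863.5, 5698 and 5517. At an adjusted p under 0.05, 3.96% of 12312 genes differed, 241 higher and 247 lower in positive cells. The most raised genes included several of DCs, led by Klra17 (7.32 on the log2 scale), Cd300c and Siglech (6.80). Siglech, a plasmacytoid DC receptor, stood at 306, 78.9, 14.6 and 10.2 CPM in Lifr-positive cells and under 1 CPM in the others, so it was far higher among the positive cells of the controls. The count without EV 1 was 171 and without EV 2 was 156.

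Without cells holding DC genes, 5.5% of 12007 genes passed, 335 higher and 325 lower, of which 408 also passed with all cells (83.6% of the first list and 61.8% of the second). The largest rises were then in Abca6 (2.14), a lipid transporter of the ABC family, Tbc1d8 (1.60), Dse (1.56) and Kcnk13 (1.24, SE 0.13), a potassium channel. Abca6, Tbc1d8 and Dse rested on few UMIs, at no more than 12.1 CPM in the Lifr-positive cells of any library. Abca6 stood at 4.02, 12.1, 1.34 and 0.941 CPM there, against 0.692, 0.176, 0.411 and 0.494 CPM in the others. St7 stood at 64.4, 66.3, 84.5 and 116 CPM in Lifr-positive cells and at 17.4, 18.5, 36.7 and 54.9 CPM in the others, a log2 difference of 1.19 (SE 0.08). Kcnk13 stood at 20.1, 21.1, 23.2 and 42.0 CPM against 3.03, 2.82, 9.77 and 19.5 CPM. The rule for naming these genes required the same direction in all 4 libraries. The Lifr-negative B cells of the EV libraries also held more of both genes than those of the controls. The 10 most raised genes also held Tyrobp (0.73), an adaptor of myeloid and NK cell receptors, and the macrophage list, summed over the whole B cell gate, was 23.2, 95.6, 165 and 121 CPM in Lifr-positive cells against 49.6, 45.3, 68.2 and 46.4 CPM in the others. It was higher in the Lifr-positive cells of 3 of 4 libraries, both EV libraries among them, and lower in control 1. The part of such cells in these differences was not tested.

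The genes lowest in Lifr-positive cells were those of dividing and antibody-secreting cells. Plk1, a mitotic kinase (-6.75), had no UMI in Lifr-positive cells of any library, Birc5 (-4.75) and Pclaf (-4.05) are further genes of dividing cells, and Jchain was lower by -4.42. Jchain, which joins secreted IgM and IgA, stood at 0, 3.01, 0.575 and 1.32 CPM in Lifr-positive cells against 28.8, 11.3, 17.1 and 25.9 CPM in the others. Apoe was lower by -0.98 (SE 0.06), at 52.3, 130, 116 and 99.5 CPM against 153, 189, 258 and 174 CPM. Jchain was lower in the Lifr-positive cells of all 4 libraries, as the rule for naming it required. Apoe, named outside that rule, was also lower in all 4. Plk1, Birc5 and Pclaf were so low in the other B cells that the few Lifr-positive control cells could hardly show a difference, so their values rest on the EV libraries. Cells with no UMI of a gene bound a fold only from the counts, so the fitted value of Plk1 depends on the prior count.

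**Figure D4:**
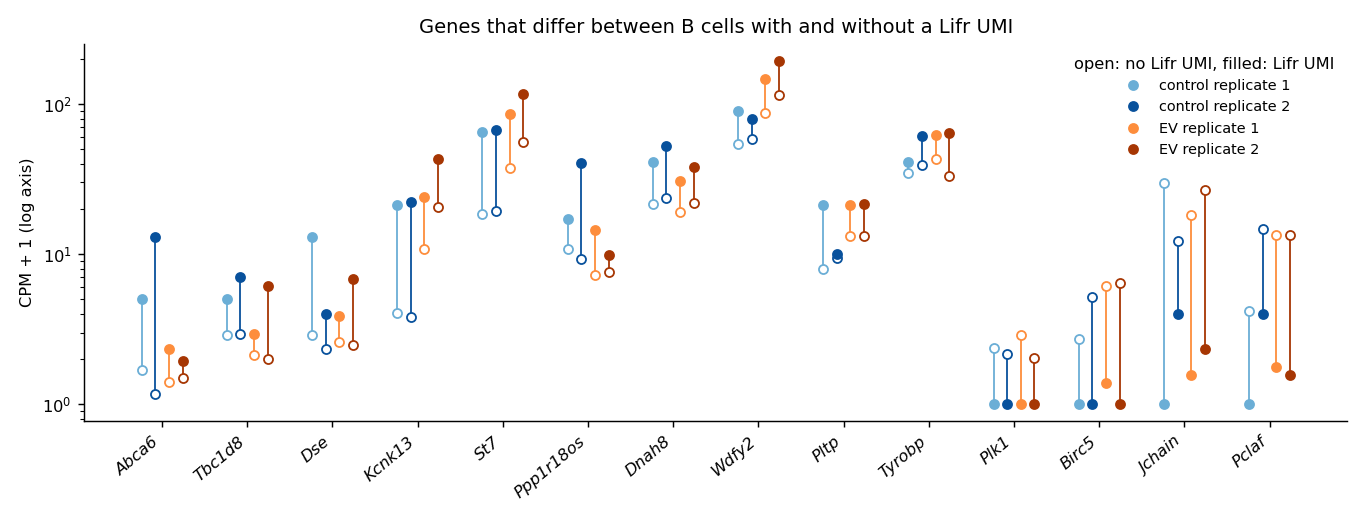
Level (CPM on the TMM-adjusted totals of the fit, + 1, log axis) of the most raised and most lowered genes in B cells with a Lifr UMI (filled) and without (open), per library, after leaving out cells with Siglech, Flt3 or Zbtb46. St7 lies at 64.4 to 116 CPM in Lifr-positive cells against 17.4 to 54.9 CPM in the others, and Jchain lies at 0 to 3.01 CPM against 11.3 to 28.8 CPM.

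Among markers of naive B cells, the log2 differences between Lifr-positive and Lifr-negative cells were small with all cells. They were -0.04 for Ighd, 0.12 for Fcer2a and -0.04 for Cr2. Of the naive B cell list, 0 of 5 genes passed with all cells, which at this background of calls does not show equal levels. Without cells holding DC genes, Ighd (0.01) and Cr2 (-0.0002) showed log2 differences near 0, and Fcer2a was higher by 0.18 (adjusted p = 0.00354). With all cells, where 3.96% of all genes passed, 1 of the 6 germinal centre genes was higher and 1 lower, 2 of the 6 plasma cell genes were lower, and 2 of the 7 tested interferon genes were lower.

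The share of each B cell subset with a Lifr UMI was also read, after leaving out cells with DC genes. In the EV libraries, 18.0% and 21.2% of cells with an Ighd UMI (IgD, of naive B cells) held Lifr, against 8.33% of 144 and 11.5% of 104 cells without. The cells without Ighd were also shallower there, at medians of 4807.5 and 4529.5 UMIs against 5796.5 and 5602. The controls had 1.79% and 2.66% with Ighd against 2.11% (2 of 95) and 1.14% (1 of 88) without, so control 1 had the reverse order. Cells with a UMI of a switched isotype held Lifr in 11.3% and 17.7%, against 17.9% and 21.1% of the rest, and the controls had 3.45% (2 of 58) and 6.33% (5 of 79) against 1.76% and 2.46%, on few positive cells. Cells with a UMI of Mki67, Plk1 or Birc5 held it in 11.1% of 81 and 8.93% of 56 cells, against 17.8% and 21.1% of the rest. In control 1 the order was reversed, at 12.9% (4 of 31) against 1.67%, and in control 2 it was 0 of 44 cells, which allows a share of up to 6.82%, against 2.65%. Cells with Apoe held it in 13.9% and 15.7% against 19.8% and 23.1%. In EV libraries each subset named here still held Lifr more often than the same subset in either control, apart from the dividing cells of control 1.

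The gp130 chain was counted in like shares of B cells with and without Lifr. A UMI of Il6st was found in 3.39%, 7.58%, 8.85% and 6.37% of Lifr-positive B cells and in 3.51%, 5.94%, 8.63% and 6.61% of the others. The log2 difference of Il6st was 0.05 (adjusted p = 0.963), or -0.24 (adjusted p = 0.510) without cells holding DC genes. Il6ra had a difference of 0.07 (adjusted p = 0.875).

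The genes most like Lifr in pattern were ranked by Pearson's r of log2(CPM + 1) over 12 sums, which were B cell subsets of the 4 libraries and so share libraries, depth and treatment. Over 11456 genes the highest were Cltc (0.884), Eef1a1 (0.870), Cd83 (0.864), Xylt1 (0.851) and Samsn1 (0.843). Without cells holding DC genes they were Cd83 (0.957), Snx29 (0.940), Xylt1 (0.934), Arhgef18 (0.931) and Rflnb (0.920). Cd83, a surface protein of activated B cells and DCs, and Xylt1, a xylosyltransferase, were named in both versions.

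The remaining genes of the pathway were taken from a list of 46 ligands, receptors, kinases, STATs, feedback genes and STAT3 targets. Of these, 35 could be tested in B cells, Lifr included. Apart from Lifr, which this contrast chose and which is part of the counts below, 2 rose in EV libraries and 0 fell, where 1.58% of all genes passed. The median log2 change was 0.17 in the list, Lifr included, and -0.0023 over all genes. The ranges of the EV and control libraries did not overlap for 17 genes of the list that were higher and 4 that were lower in EV libraries, and for 50.8% of all genes tested.

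Among ligands, Clcf1 stood at 28.2, 28.8, 32.7 and 29.3 CPM in B cells (log2 change 0.17, adjusted p = 0.407), and Osm at 2.49, 1.88, 2.62 and 2.77 CPM (0.35, adjusted p = 0.531). Ebi3, a subunit of interleukin-27, stood at 9.25, 8.85, 5.41 and 6.91 CPM (-0.51, adjusted p = 0.180). None of the tested ligands passed. No UMI of Il6 was counted in B cells of any library. Among the other receptors, Il27ra stood at 63.2, 64.0, 64.3 and 63.3 CPM in B cells (0.05, adjusted p = 0.789), with groups that overlapped.

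Among signal carriers, Stat3, the main STAT of the family, stood at 113, 122, 240 and 165 CPM (0.83, adjusted p = 0.0506) and did not pass. Among feedback genes, Socs1 rose from 5.59 and 6.97 to 18.5 and 16.8 CPM (1.53, SE 0.15, adjusted p = 0.00514). Socs3, the inhibitor that binds gp130, stood at 1.79, 2.98, 76.4 and 7.85 CPM (4.20, SE 1.08, adjusted p = 0.0976), so EV 1 alone held most of it. The 7 tested genes of the interferon list also had positive log2 changes in EV-treated B cells, where the median over all genes was -0.0023. A link between these changes and Socs1 was not tested.

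Among STAT3 targets, Bcl3 stood at 31.0, 31.2, 79.1 and 47.3 CPM (1.07, adjusted p = 0.0540) and Bcl6, the repressor that directs germinal centre B cells, at 145, 126, 173 and 206 CPM (0.53, adjusted p = 0.0619). Both were above the controls in both EV libraries and just missed the threshold. Without cells holding DC genes 7 genes of the list passed, where calls over all genes rose from 207 of 13127 to 397 of 12847. The added genes were Stat3 (adjusted p = 0.0220), Bcl6 (0.0344), Bcl3 (0.0215) and Socs3 (0.0475). The count was 6 without control 1, 2 without control 2, 14 without EV 1 and 16 without EV 2. Calls over all genes moved too, to 152 of 14025, 209 of 13995, 2352 of 12991 and 1122 of 12978 in the same order.

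In T cells 28 of 36 tested genes of the list had a positive log2 change. The list median was 0.18, against -0.00062 over all genes. With edgeR 0 of these 36 passed, where 0.536% of all genes did. With DESeq2 1 of 44 passed, where 316 of 22120 genes did. The count was 0 without control 1, 6 without control 2, 16 without EV 1 and 13 without EV 2, when calls over all genes were 6 of 14415, 359 of 14468, 3026 of 14470 and 891 of 14593. Socs3 stood at 14.2, 15.2, 92.7 and 19.2 CPM in T cells and Socs1 at 31.7, 33.2, 81.4 and 51.1 CPM, so EV 1 was the high library for Socs3 in both cell types.

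**Figure D5:**
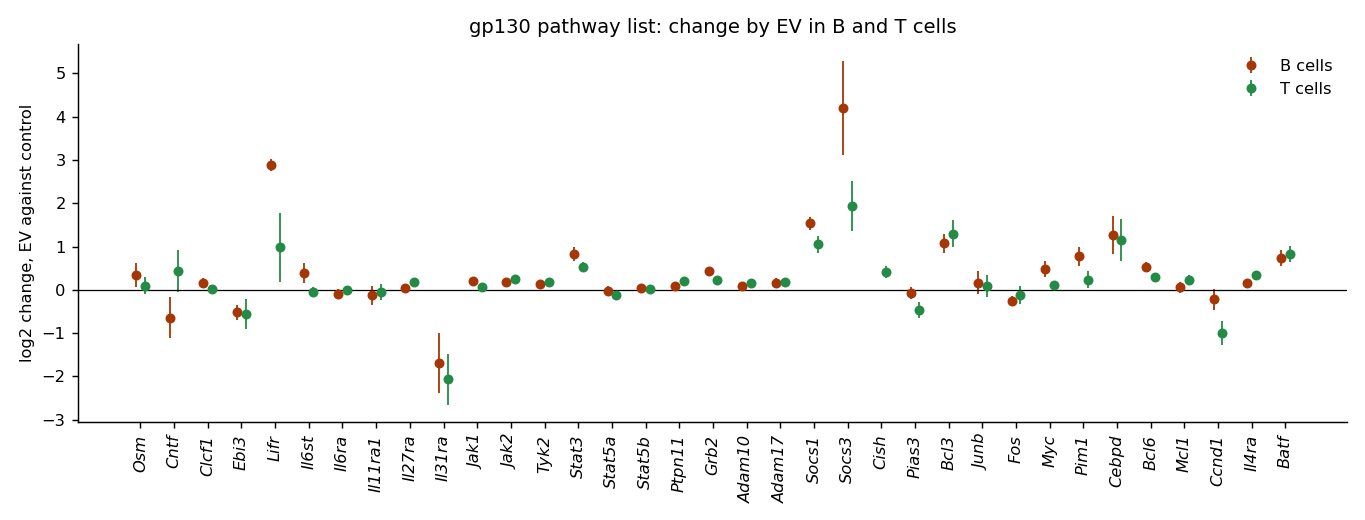
Log2 change with its standard error between EV and control libraries for tested genes of the gp130 list, in B cells and in T cells. Lifr stands at 2.89 and Socs3 at 4.20 with a standard error of 1.08 in B cells, whereas Il6st and Il6ra lie within 0.40 of 0 in both cell types.

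Between B and T cells, 29 of the 36 tested genes passed, Lifr included, 14 higher and 15 lower in B cells, or 80.6% against the 70% of all genes. Receptors split, with Lifr and Il11ra1 (0.32, adjusted p = 0.0362) higher in B cells and Il6st, Il6ra and Il27ra (-1.51, adjusted p = 4.56e-09) lower. Jak1, the kinase that gp130 binds, was lower in B cells (-0.57, adjusted p = 8.17e-06), and Stat3 did not differ by the test (0.12, adjusted p = 0.141).

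Within B cells, genes of the list were also called in the splits. With Fcer2a, where 16% of all genes passed, 5 genes of 34 were higher, among them Bcl6 (0.34), Myc (0.38) and Il27ra (0.27), and 5 were lower, among them Il6st, Pim1 (-0.34) and Socs3 (-0.53). In interferon-high cells, where 5.22% of all genes passed, 2 of 34 were higher, among them Socs1 (2.03). The 4 that were lower were Lifr, whose counts in B cells chose it, Il27ra (-0.71), Stat5b (-0.52) and Bcl6 (-0.49). In Lifr-positive cells, where 3.96% of all genes passed, Bcl6 was higher by 0.35 (adjusted p = 0.000132) and Fos by 0.36 (adjusted p = 0.0191), and Myc was lower by -0.58 (adjusted p = 0.00268). Bcl6, Fos and Myc passed in the same directions without cells holding DC genes, whereas Ccnd1 (2.01, adjusted p = 0.0117) and Cebpd (1.97, adjusted p = 0.0399), both higher with all cells, did not. The directions were not shared by all libraries. In control 1, Myc was 27.8 CPM in Lifr-positive cells against 23.1 CPM in the others, or 36.2 against 22.1 CPM without cells holding DC genes. Bcl6 was 145 CPM in both groups of control 1 with all cells. Fos in control 2 was 39.2 against 41.1 CPM without cells holding DC genes.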

How the data were processed

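The 4 single-cell 3′ libraries came from draining lymph nodes, 2 per group. The authors aligned reads with Cell Ranger 7.1.0 to mm10, and the deposited matrices hold raw UMI counts per gene and cell barcode. Cells with 200 to 5000 genes, at most 20000 UMIs and under 10% mitochondrial UMIs were kept. Scrublet in scanpy 1.11.5 marked 1.58% to 3.76% of cells per library as doublets at an expected rate of 6.0%, and these were left in and removed only as an alternative.

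Counts were summed per library and gate and fitted with edgeR 4.0.16 in R 4.3.3 (quasi-likelihood test, TMM scaling, filterByExpr, Benjamini-Hochberg adjustment over all genes tested, threshold 0.05). Standard errors are the absolute log2 change over the square root of F. Comparisons within libraries, such as B against T cells, carried the library as a block. Depth was 50749656 to 70418672 UMIs per library. Replicates may share technical sources, so p-values measure only the spread between these libraries. Alternatives were DESeq2 1.42.0, no filter on low counts, thinning, other gates, doublet removal and leaving out each library. The edgeR fit of EV against control in B cells was also run on simulated counts, whereas the other comparisons were not simulated.

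The members, the gene lists and the gates were chosen with earlier results of these data known. Genes named for Lifr-positive cells were the 10 most raised and 5 most lowered among those passing in the same direction in all 4 libraries. Apoe and genes of the marker and pathway lists were named outside this rule. Some genes that met these rules are not reported here. Shares carry exact 95% intervals, and a count of 0 was bounded by 3 counts. Promoter windows came from RefSeq on GRCm38.p6, the assembly of mm10.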

Additional observations from a re-analysis of the deposited data

Results flagged for a closer look

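The EV difference in Lifr was larger in B cells with Fcer2a than in those without by 1.52 on the log2 scale (SE 0.25), with no p given because the EV values of Lifr in B cells chose the gene. The difference was 0.22 (SE 0.38) after cells with Siglech, Flt3 or Zbtb46 were left out, and 0.50 (SE 0.35) with the stricter gate. Lifr in control B cells without Fcer2a was 13.6 and 11.5 CPM with those cells and 5.76 and 3.84 CPM without them.

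Barcodes of the B cell gate that the cell filter left out also carried Lifr, a signal in data outside the comparisons. Of 104 and 119 such barcodes in EV 1 and EV 2, 13.5% and 13.4% held a Lifr UMI, at medians of 22973.5 and 21148 UMIs per barcode. The control libraries had 5.26% of 38 and 0% of 44 such barcodes, at medians of 1330.5 and 1511.5 UMIs. As levels these were 20.2 and 15.1 CPM in EV libraries and 50.7 and 0 CPM in controls, so the groups overlapped as levels. The difference between groups was not tested.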

How the results depend on the processing

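The 15 results were recomputed under 196 alternatives, of which 149 were labelled the same. For fitted log2 values the label means the same direction and side of the threshold. For counts of genes called it means a count equal or close to that of the main setting. The Lifr change in B cells kept its direction in each one run, at 2.71 to 3.41. Cells with Siglech, Flt3 or Zbtb46 were left out as an alternative chosen after seeing the data. The cause of the changes below was not tested.

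Leaving out 1 library at a time gave 0.087 to 0.80 for Il6st (0.60 without EV 2) and -0.20 to 0.016 for Il6ra (reversed at 0.016 without EV 1) in B cells. In T cells it gave -0.23 to 0.12 for Il6st and -0.027 to 0.044 for Il6ra. Il6ra in T cells was reversed at -0.021 after thinning, -0.0086 without upper limits and a mitochondrial limit of 5%, -0.019 without control 1 and -0.027 without EV 2.

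Pathway genes called in B cells (3) were 7 with DESeq2, without upper limits or without cells holding DC genes, 12 without the low-count filter, 5 with doublets removed, 6 with the stricter gate and 2 to 16 with 1 library left out. In T cells (0) they were 1 with DESeq2, 9 without the filter, 2 after thinning and 0 to 16 with 1 library left out. With the replicate block they were 11 in B cells and 6 in T cells. Calls over all genes also moved. In B cells (207) they were 418 with DESeq2, 1101 without the low-count filter and 559 without upper limits. They were 397 without cells holding DC genes, 235 with doublets removed, 265 with the stricter gate and 750 with the block. In T cells (75) they were 316 with DESeq2, 1239 without the filter, 74 after thinning and 550 with the block. Correlations of same-numbered libraries' deviations were -0.004 in B cells, 0.057 in T cells and 0.136 in macrophages. Each rests on a single difference per group, so it cannot show whether same-numbered libraries share a batch.

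Lifr between Fcer2a subsets, given with no p, was reversed at -0.16 with DESeq2 and was 0.38 without the filter. It was 0.46 with the stricter gate, 0.47 in cells of 3000 to 8000 UMIs and 0.53 without cells holding DC genes. With 1 library left out it ran from 0.10 to 0.46. Lifr in interferon-high cells, also given with no p, was -1.16 with DESeq2 and -0.99 thinned, and ran from -1.33 to -1.03 with 1 library left out. The Fcer2a difference in EV effect, given with no p, was 1.52 with DESeq2, 1.68 after thinning, 0.50 with the stricter gate and 0.22 without cells holding DC genes, and ran from 1.27 to 1.76 with 1 library left out.

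Genes called between Lifr-positive and Lifr-negative cells (488) were 212 with DESeq2, 69 after thinning, 289 in cells of 3000 to 8000 UMIs and 156 to 658 with 1 library left out. The share difference of 16.8 points was 4.44 after thinning, and 15.3 to 18.4 with 1 library left out. Over all genes, EV against control calls were 207 in B cells (418 with DESeq2) and 0 in macrophages (65 without the filter). Il6st in macrophages was removed by the filter, so the remaining alternatives gave no value. With 2 libraries per group and under 100 macrophages per library, changes in Osmr, Lif and macrophage receptors were beyond this depth.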
